A study of Mus musculus with 8 samples.

Results

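The ends of the mouse autosomes were examined for cytosine methylation at HpaII sites in liver DNA. The proximal set held the sites of chromosomes 1 to 19 at positions up to 6 Mb of the mm9 build, next to the centromere. The distal set held the sites within 2 Mb of the last listed site of each chromosome, next to the telomere. Of 1263517 autosomal sites listed in all 8 samples, 28302 were proximal and 20948 distal. The other 1214267 are called interior, and the whole series held 1310003 sites. The sets were defined by position alone. All 8 samples were liver of C57BL/6J mice on a high-fat diet. The lingonberry group (n = 4) received lingonberries with that diet, and the HFD group (n = 4) the high-fat diet alone. The labels give no age, and nothing in them states whether a sample came from a single mouse or from several, although the design gives 4 per group. Liver tissue holds several cell types, and a change in methylation within cells and a change in the mix of cells cannot be told apart.

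HpaII needs an unmethylated CpG within its CCGG site to cut, and MspI cuts CCGG regardless of that methylation. In HELP-tagging a short tag is sequenced from each HpaII cut and set against MspI tags of the same site. The deposited m-score ran from 0, where a site gave no HpaII tag (methylated), to 100, where it had no MspI tag (unmethylated). It is relative to the other sites of a sample. Unless stated otherwise, values are means over sites with at least 10 tags in the MspI reference, which 18632 proximal and 15241 distal sites had. HpaII tags per sample ranged from 6121989 to 16076961 with lingonberries and from 5877080 to 7428108 with HFD.

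Mouse chromosomes are acrocentric. Their centromere lies at one tip in a large block of satellite repeats that the genome assembly leaves out, so the first listed sites are those beyond it. Sequence next to centromeres is often duplicated between chromosomes, while sequence next to telomeres is often rich in genes and CpGs. Most single CpGs of mammalian DNA are methylated, and CpG-dense promoters are largely free of it, which is why the number of neighbouring sites had to be held equal when ends and interiors were compared. "Matched interior" below means interior sites of the same chromosome, weighted to the same distribution of the number of other sites within 500 bp.

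The 5 promoters printed here show the range of states met among promoters of the ends that could be placed. Each is the 250 bases before the RefSeq start (GRCm38.p6), read 5′ to 3′ on the gene's strand, with CCGG, the HpaII site, in capitals. They were placed on the deposited mm9 sites by the spacing of CCGG, and the m-scores of those sites follow. Of all promoters in that RefSeq table, 47.0% hold a CCGG in the same 250 bases (CCGG reads the same on both strands).
Emid1: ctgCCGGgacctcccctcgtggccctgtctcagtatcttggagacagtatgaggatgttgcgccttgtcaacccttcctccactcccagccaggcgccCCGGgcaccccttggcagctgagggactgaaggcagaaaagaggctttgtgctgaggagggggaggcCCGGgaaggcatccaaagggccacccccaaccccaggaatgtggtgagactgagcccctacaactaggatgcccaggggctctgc
Dnmt3a: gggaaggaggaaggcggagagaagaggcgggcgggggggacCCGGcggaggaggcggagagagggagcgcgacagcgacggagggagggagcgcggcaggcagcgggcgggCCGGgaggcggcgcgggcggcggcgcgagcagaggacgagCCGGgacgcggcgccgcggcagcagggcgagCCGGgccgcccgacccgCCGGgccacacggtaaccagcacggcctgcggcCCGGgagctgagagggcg
Ptger4: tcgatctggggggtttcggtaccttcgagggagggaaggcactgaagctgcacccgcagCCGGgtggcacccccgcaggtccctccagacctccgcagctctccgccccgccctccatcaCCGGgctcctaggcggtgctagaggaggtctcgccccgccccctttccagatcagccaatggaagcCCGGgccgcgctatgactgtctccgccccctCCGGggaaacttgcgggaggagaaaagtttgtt
Zfp385a: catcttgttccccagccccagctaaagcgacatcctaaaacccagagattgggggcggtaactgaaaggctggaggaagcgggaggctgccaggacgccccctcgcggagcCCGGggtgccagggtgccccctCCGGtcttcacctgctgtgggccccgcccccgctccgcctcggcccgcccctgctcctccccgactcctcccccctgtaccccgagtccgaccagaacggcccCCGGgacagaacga
Paip1: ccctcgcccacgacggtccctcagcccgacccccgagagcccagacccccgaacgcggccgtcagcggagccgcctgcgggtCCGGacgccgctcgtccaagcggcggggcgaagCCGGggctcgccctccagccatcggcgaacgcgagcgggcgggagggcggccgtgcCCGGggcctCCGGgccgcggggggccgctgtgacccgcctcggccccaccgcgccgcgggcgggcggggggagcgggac

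Emid1, at the proximal end of chromosome 11 (minus strand), had the lowest level of the 135 proximal promoters that could be placed. Its 3 sites, at positions 5050323, 5050228 and 5050161, had mean m-scores of 6.62, 14.6 and 13.2 over the 8 samples. Only 11, 16 and 34 HpaII tags fell on them in all. Dnmt3a, which encodes a DNA methyltransferase that sets new methylation marks, lies at the proximal end of chromosome 12 (plus strand). Of its 6 sites, 5 had means from 75.9 to 90.9. The fourth, at position 3807094, had 17.2, from 8 HpaII tags over all samples. The proximal promoter of Ptger4, a receptor for prostaglandin E2, on the minus strand of chromosome 15, was unmethylated at all 4 printed sites, with means from 83.6 to 87.2. Zfp385a, a zinc finger gene at the distal end of chromosome 15 (minus strand), was mixed. Its sites at 103170655 and 103170633 had means of 37.2 and 17.1, and the site at 103170530 had 87.5, from only 9 MspI tags. Paip1 encodes a protein that binds the poly(A)-binding protein, and its promoter lies at the distal end of chromosome 13 (plus strand). Its 4 printed sites had means from 81.5 to 89.4, the fourth from only 8 MspI tags, and all lay above 75.

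By m-score, the proximal ends lay slightly below matched interior sequence and the distal ends slightly above. The proximal mean m-score was 29.6, 28.9, 29.6 and 29.9 in the 4 lingonberry samples and 30.2, 30.7, 31.3 and 30.4 in the 4 HFD samples. It lay below the matched interior in each of the 8, by 0.938 to 1.11 points, as the interior gave 30.5, 29.9, 30.5 and 30.9 with lingonberries and 31.2, 31.8, 32.4 and 31.3 with HFD. The mean difference was -0.995 ± 0.0234 (SE over the 8 samples; two-sided p = 0.0078 by exact sign-flip permutation, the least that 8 samples allow, adjusted p = 0.0078 over both ends). The distal mean m-score was 33.1, 32.4, 32.9 and 33.5 with lingonberries and 33.7, 34.1, 34.8 and 33.8 with HFD. It lay above the matched interior in each of the 8, by 1.14 to 1.37 points, with a mean difference of 1.25 ± 0.0262 (SE; exact sign-flip permutation test, p = 0.0078, adjusted p = 0.0078). Both tests and SEs measure the spread between samples that share a MspI reference. They do not measure the spread between chromosomes, so they do not show that ends differ as a class.

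Both differences rested in part on single chromosomes. The distal difference was 0.049 without chromosome 15 and no longer passed the test (exact sign-flip permutation test, adjusted p = 0.25). The proximal difference was -0.691 without a tandem array on chromosome 12 that is described below, and -0.498 without sites of shared tags. It was -0.279 with matching by sites within 2000 bp, and -2.14 with a minimum of 1 MspI tag. Under other measures the proximal end lay above the interior, in a call as firm as that below it. It did so by 0.566 where interior sites were not matched by neighbours, and by 0.09 on the scale of log2 HpaII tags per 1000000 (exact sign-flip permutation test, adjusted p = 0.0078 each). The log2 was taken of mean tags over sites, so sites with very many tags weigh most on that scale. On chromosome 3, 5 sites, 4 of them with shared tags, drew 5.90% of all proximal HpaII tags. The log2 value without such sites was not computed. The share of sites at 75 or above differed by -0.061 percentage points (exact permutation test, adjusted p = 0.312). The direction at the proximal ends thus depended on the measure and the matching.

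**Figure D1:**
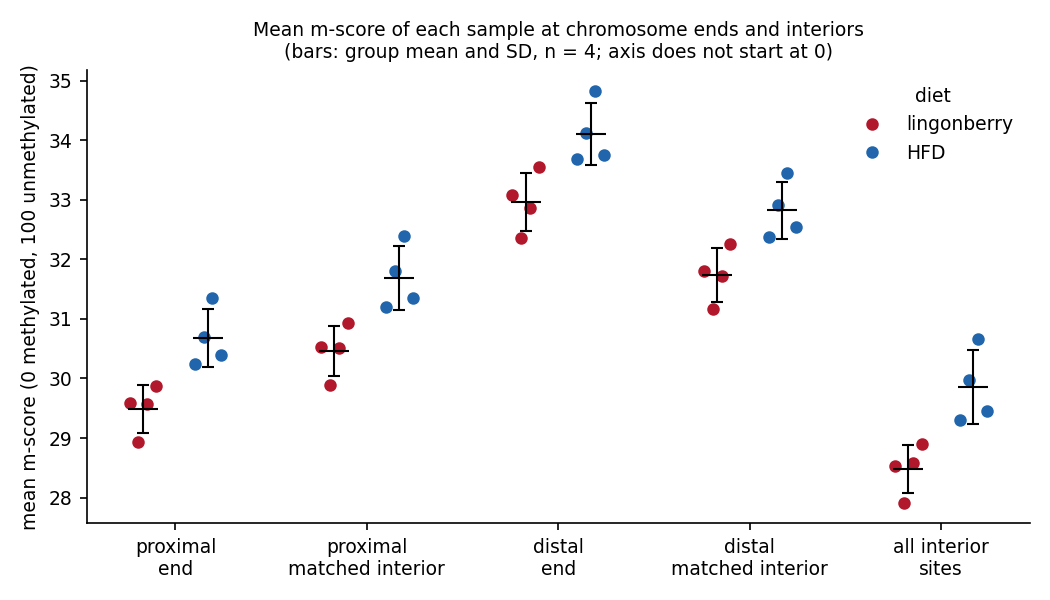
Mean m-score of each sample (points) at the proximal and distal ends, in interior sites matched to each, and in all interior sites, with the mean and SD of each diet group (n = 4). In each of the 5 columns all lingonberry samples lie below all HFD samples, and proximal points lie below, distal points above, their matched interior.

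The ends also differed from the interior in what could be measured there. Fractional tags, read as tags divided between several sites of like sequence, occurred at 19.1% of proximal, 10.8% of distal and 10.6% of interior sites. No HpaII tag fell in any sample on 19.1% of proximal, 13.4% of distal and 14.3% of interior sites. Clustered sites, with 5 or more others within 500 bp, made up 13.8% of the proximal, 16.2% of the distal and 11.3% of the interior set. Sites averaging 75 or more, called unmethylated here, made up 13.6% of proximal, 15.0% of distal and 11.7% of interior sites. Both ends were thus somewhat richer in site clusters than the interior. The deviation from the matched interior varied with the class of site. At the proximal end it was -0.636 for isolated sites, which have no neighbour within 500 bp, -0.687 for sites with 1 to 4 neighbours and -2.55 for clustered sites. At the distal end it was 0.932, 2.04 and -0.180. Most of this pattern rested on the array on chromosome 12 at the proximal ends and on the whole end of chromosome 15 at the distal ends. Without the array on chromosome 12 the proximal clustered sites lay at -0.835, near the other proximal classes. Without chromosome 15 the distal classes lay at 0.257, 0.197 and -0.690. These are descriptions and were not tested.

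Single chromosomes varied far more than the average. Of the 19 proximal ends, 16 had a mean below their matched interior, 13 of them in all 8 samples, and 3 had a mean above it, in all 8 samples each. The lowest was chromosome 9, where 378 sites averaged 20.1 against 26.4 in the matched interior, a difference of -6.25 ± 0.957 (SD over the 8 samples). Chromosome 14 followed with -5.33 ± 1.63, from only the 78 of its 725 listed sites that had enough MspI tags. Tags were shared at 92.0% of the listed sites. Chromosome 12 came next with -5.02 ± 0.257 over 1370 sites. The highest were chromosome 19 (0.924 ± 0.283), the proximal end with most sites per Mb (1155), chromosome 16 (0.895 ± 0.345) and chromosome 7 (0.867 ± 0.148).

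Of the 19 distal ends, 10 had a mean above their matched interior, 9 of them in all 8 samples, and 9 had a mean below it, 6 of them in all 8. Chromosome 15 stood apart at 11.4 ± 0.353 (SD over the 8 samples), with 45.5 against 34.1 in its matched interior over 1605 sites. Chromosomes 19 and 16 followed with 4.17 ± 0.395 and 3.91 ± 0.626. The lowest distal ends were those of chromosome 5 (-3.30 ± 0.351), chromosome 6 (-2.08 ± 0.504) and chromosome 8 (-1.96 ± 0.455). The median over the 19 chromosomes was -1.38 for the proximal and 0.235 for the distal ends. Regardless of direction, the median distance of an end from its interior was 1.38 for the proximal and 1.54 for the distal ends, so distal ends strayed about as far, but both ways.

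**Figure D2:**
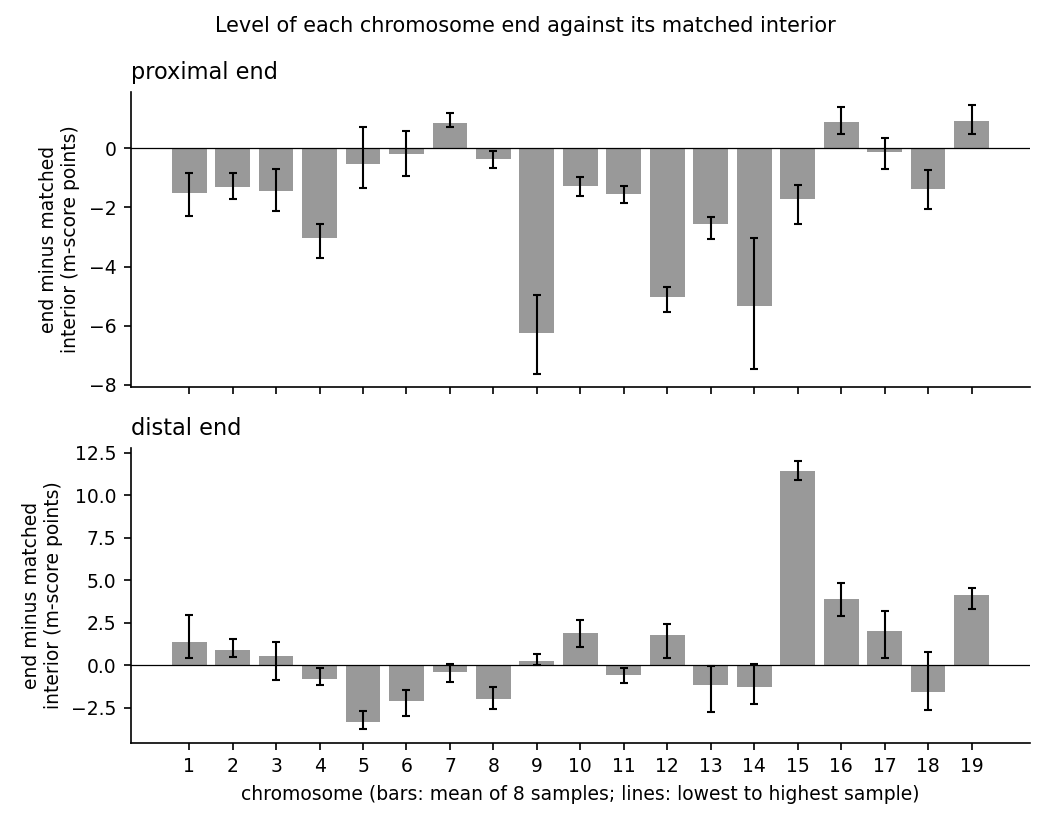
End minus matched interior in m-score points (vertical axis) for the proximal (upper panel) and distal (lower panel) end of each autosome (horizontal axis); bars are means of 8 samples and lines run from the lowest to the highest sample. Proximal bars are mostly below 0, down to -6.25 on chromosome 9, and the distal bar of chromosome 15 reaches 11.4.

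The deviations did not stop at the limits of the end sets. In steps of 0.5 Mb from 3 Mb, all 6 steps of the proximal set lay below the matched interior, between -2.29 and -0.031, but so did 15 of the 18 steps from 6 to 15 Mb, between -2.76 and 1.81 in all. The lowest step of the proximal set, at 5.0 to 5.5 Mb, was -2.29 with chromosome 12 and -0.275 without it. Without chromosome 15, the last 0.5 Mb of the distal set lay below the matched interior, at -1.11 ± 0.207 (SD over the 8 samples), and the 3 steps before it lay above, between 0.064 and 0.922. The steps just outside this set, at 2 to 2.5 and 2.5 to 3 Mb, lay higher still, at 1.39 and 1.21. Of the 20 steps from 2 to 12 Mb, 15 lay below the matched interior, between -2.62 and 1.39 in all. Whether a step differed from its neighbours was not tested.

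**Figure D3:**
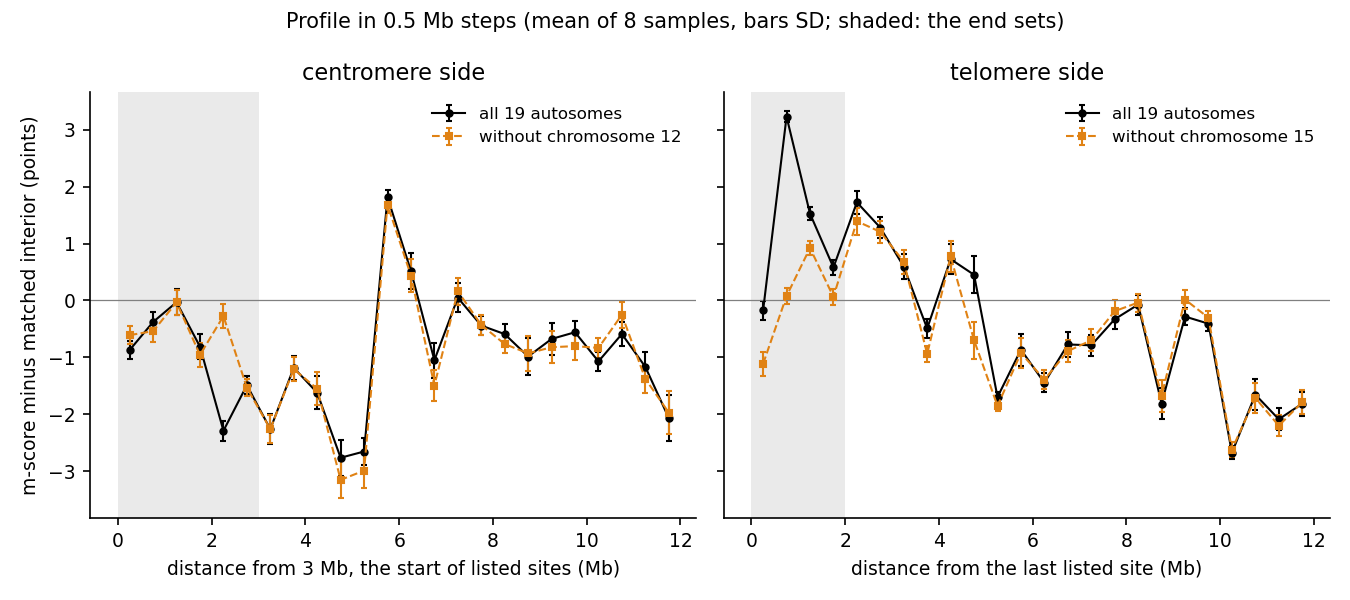
Deviation from the matched interior in m-score points (vertical axis) in 0.5 Mb steps from 3 Mb on the centromere side and from the last listed site on the telomere side (horizontal axes, Mb), as mean and SD of 8 samples, with all autosomes (black) and without chromosome 12 or 15 (orange). The step at 5.0 to 5.5 Mb moves from -2.29 to -0.275 without chromosome 12, and the peak of 3.23 between 0.5 and 1 Mb from the last site falls to 0.078 without chromosome 15.

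The distal end of chromosome 15 held a block of high m-scores. It was set, after the values were seen, as the longest run of 25 kb windows with means of at least 60, so its difference carries no test. Between 102725001 and 102900000, 306 sites had a mean m-score of 70.1, with the 8 samples between 68.8 and 71.7, against 42.0 in the matched interior. Of these sites 42.8% were at 75 or above and only 1.31% below 25. Sparse sites of the block were high as well. Its 30 isolated sites averaged 56.8 against 18.9 for isolated interior sites of the chromosome, and its 157 sites with 1 to 4 neighbours averaged 69.3 against 28.8. The 119 clustered sites averaged 74.4 against 65.2. With lingonberries the block had 70.5 ± 0.953 and with HFD 69.6 ± 0.689 (SD, n = 4), groups that overlapped (exact permutation p = 0.20).

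By gene order, the block lies between the placed promoters of Cistr (102577306) and Zfp385a (103170507). RefSeq lists 25 genes between them, 15 coding for protein, and 9 of the 25 are the Hoxc genes from Hoxc13 to Hoxc4, transcription factors that set positions along the body axis. Also in this interval are Hotair, a long noncoding RNA of the Hoxc cluster, Smug1, a DNA repair glycosylase, and Cbx5, a heterochromatin protein. Which of these genes the block covers could not be read from mm9 coordinates. Without the block, the distal end of chromosome 15 still lay above its matched interior, by 7.52 ± 0.303 over 1299 sites (SD over the 8 samples), and the distal ends of all chromosomes by 0.699 ± 0.0825.

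Of 11 placed promoters at this end, the lowest was Zfp385a (47.4) and the median 71.9. Spryd3 and Pcbp2, an RNA-binding protein gene, were high at 82.9 and 82.7. Rarg, a retinoic acid receptor, had 62.9, and Sp1, a general transcription factor, 70.4.

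**Figure D4:**
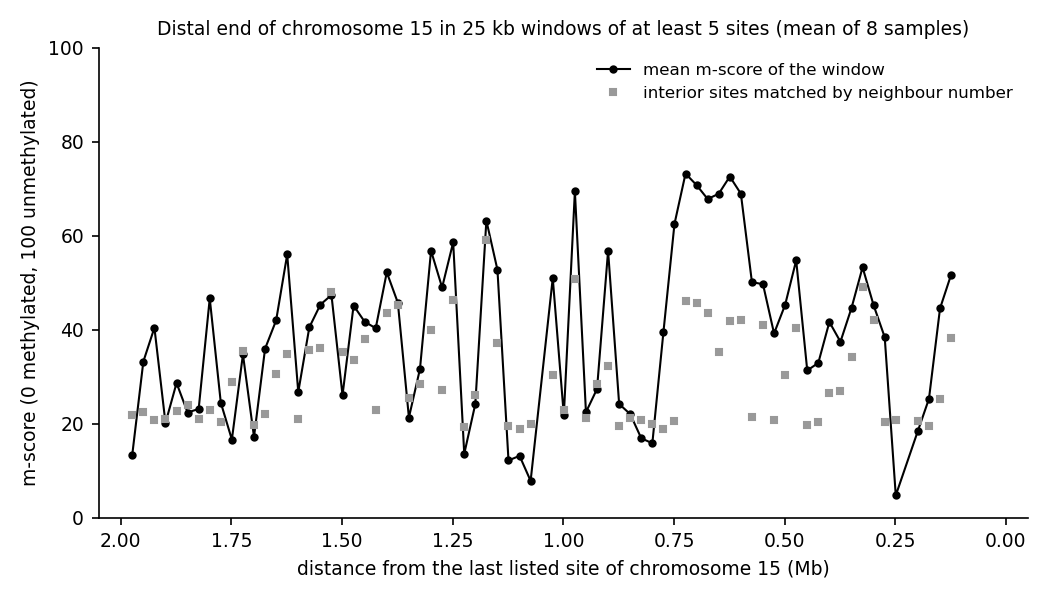
Mean m-score of 25 kb windows with at least 5 sites (black, mean of 8 samples) along the distal end of chromosome 15 by distance from its last listed site (Mb), with the matched interior level of each window (grey). The 7 windows of the block run from 62.5 to 73.2 and lie 24.3 to 41.8 above their matched level.

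The low level of the proximal end of chromosome 12 rested on a tandem array. Between 5057130 and 5067792 lay 141 listed sites in 10.7 kb, and 83 of the 140 gaps between them were 30 to 32 bp, 76 of them exactly 31 bp. A further 31 gaps were 61 to 63 bp. Sites this dense elsewhere had high m-scores, with a matched interior level of 74.2, but the 78 array sites with enough MspI tags averaged 0.846, with the 8 samples between 0.525 and 1.08. Over all 8 samples the array drew 91.7 HpaII tags, and 89 of its sites drew none. Tags were shared at 78.7% of its sites, so single sites within it are not independent.

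Without the array, the other 1292 sites of this end lay 0.895 below their matched interior. Of the 241 proximal sites with 15 or more neighbours, the 59 in the array averaged 0.457 and the 182 outside it 70.9, against 74.5 for interior sites of that density. Lingonberry samples had 0.881 ± 0.111 in the array and HFD samples 0.811 ± 0.276 (SD, n = 4), which did not differ by the exact permutation test (p = 0.657). The array lies between the placed promoters of Ubxn2a (75.6) and Klhl29 (88.0), both unmethylated, where RefSeq lists Atad2b and 2 pseudogenes. Of the 14 placed promoters at this end, the lowest had 56.8.

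Tags piled up on a few proximal sites. On chromosome 3, 5 sites between 5860662 and 5860757 drew 98415 HpaII tags over the 8 samples, 5.90% of all tags of the proximal set. The site at 5860718 alone drew 57470.5 and had a mean m-score of 81.0. The share of a library on these 5 sites was 0.145% ± 0.0264 with lingonberries and 0.131% ± 0.0208 with HFD (SD, n = 4, exact permutation p = 0.457). On chromosome 6, 7 sites between 3150546 and 3151588 drew 44100 tags, with m-scores of 51.7 ± 3.20 with lingonberries and 55.0 ± 3.25 with HFD (exact permutation p = 0.171). Tags were shared at 4 of the 5 and at all 7 of these sites.

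The proximal ends of chromosomes 11 and 17 held sites in mirrored order with the same tags. In 3 pairs of sites, picked out after the values were seen, the MspI tags were 15.0, 771 and 33.7. A pair was kept only where MspI tags were equal within 0.02 and positions ran in opposite order at nearly the same sum. The equal MspI tags and the spread of 3 bp in position were thus set by the choice and are no test. Sites there that did not pair were not counted. At the pair with 771 MspI tags (3024402 on chromosome 11 and 3083696 on chromosome 17) the HpaII tags were 2695.5 and 2694.5. Such sites count as separate members of the set although they rest on the same tags.

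Lingonberry samples had lower m-scores than HFD samples at both ends, by about as much as in the interior. At the proximal end the group means were 29.5 ± 0.400 with lingonberries and 30.7 ± 0.487 with HFD (SD, n = 4), a difference of -1.18 ± 0.315 (SE). The highest lingonberry sample lay below the lowest HFD sample, but the difference did not pass after adjustment (two-sided p = 0.0286 by exact permutation, the least that 4 against 4 allow, adjusted p = 0.0571 over 4 diet tests). At the distal end the difference was -1.14 ± 0.360 (SE), again with no overlap (exact permutation p = 0.0286, adjusted p = 0.0571). Lingonberry replicate 3, whose 6121989 tags lie within the range of the HFD libraries, had 29.6 and 32.9 at the ends, also below all HFD samples. The other 3 lingonberry libraries were deeper than every HFD library. Within HFD, the m-score of isolated proximal sites ran opposite to depth, at 18.7 for 7428108 tags, 18.8 for 7036766, 19.9 for 6530093 and 21.4 for 5877080. Diet and depth cannot be fully told apart in these samples.

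Set against their matched interiors, the ends showed no diet difference that passed. Beyond the matched interior, lingonberry minus HFD was 0.038 ± 0.0482 (SE) at the proximal end (exact permutation p = 0.457, adjusted p = 0.457). It was -0.055 ± 0.0519 at the distal end (exact permutation p = 0.343, adjusted p = 0.457). The proximal value exceeded the distal one by 0.092 ± 0.0765 (exact permutation p = 0.314). With chromosomes weighted equally the distal value was -0.331 (exact permutation p = 0.0571, adjusted p = 0.0762) and the gap 0.381 (exact permutation p = 0.0286). The plain diet difference varied with the minimum of MspI tags per site and with the measure. That minimum changes which sites are used, and why the difference changed was not tested. With at least 50 MspI tags it was -0.029 at proximal and 0.202 at distal ends. The share of sites at 75 or above was higher with lingonberries by 0.472 percentage points at proximal and 0.192 at distal ends, and log2 HpaII tags per 1000000 were higher by 0.03 at each.

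The lower m-scores were found at sparse sites. At isolated sites, proximal ends had 16.99 ± 0.519 with lingonberries and 19.7 ± 1.25 with HFD, and distal ends 18.5 ± 0.456 and 21.5 ± 1.31 (SD, n = 4). At clustered sites the order was opposite, with 67.4 ± 0.832 and 65.5 ± 1.29 at proximal and 69.2 ± 1.13 and 67.5 ± 1.16 at distal ends. None of the 6 classes passed after adjustment (exact permutation tests, adjusted p = 0.0857 each over 6). The diet difference at isolated sites minus that at clustered sites was -4.59 at proximal and -4.69 at distal ends (exact permutation p = 0.0286 each). The interior had -4.76, so the contrast was slightly smaller in size at the ends. End minus interior was 0.167 at proximal (exact permutation p = 0.257) and 0.064 at distal ends (exact permutation p = 0.657).

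**Figure D5:**
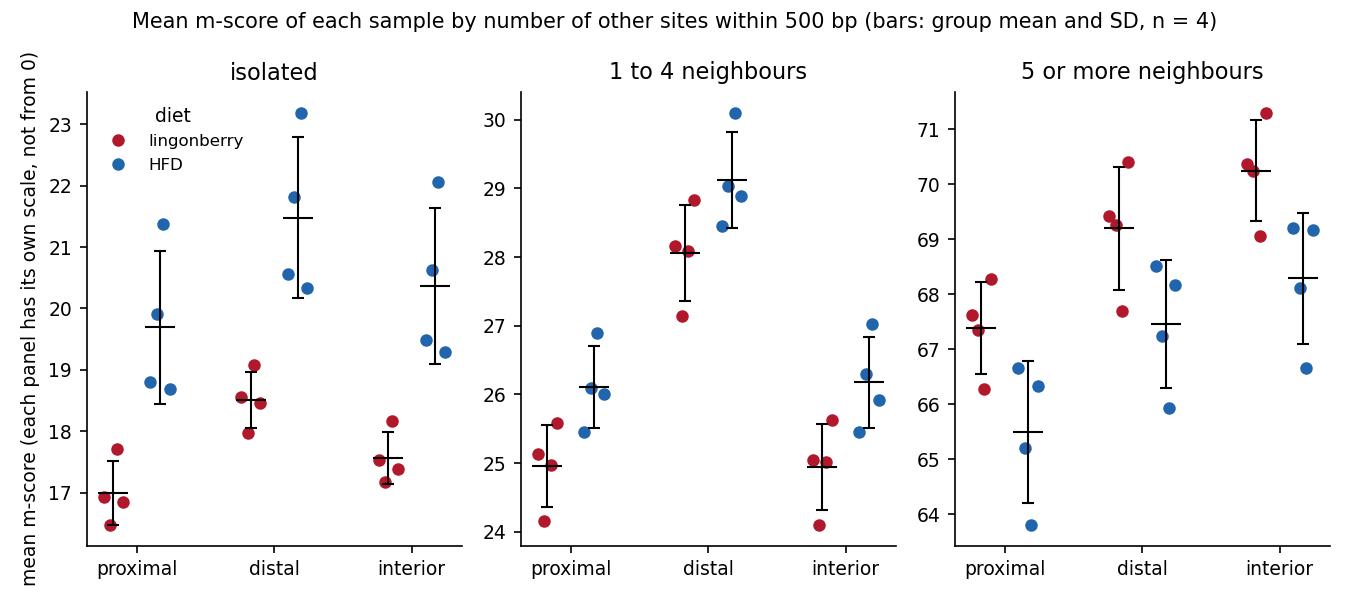
Mean m-score of each sample (points) in 3 classes of neighbour number (isolated, 1 to 4, clustered) of the proximal, distal and interior sets, with the mean and SD of each diet group (n = 4). Lingonberry points are lower at isolated sites and mostly higher at clustered sites in all 3 sets.

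By chromosome, limma fitted over the 38 ends and 19 interiors called 84.2% of these 57 lower with lingonberries (adjusted p under 0.05) and 1.75% higher. Of the 19 proximal ends, 15 were lower and 1 was higher, and 14 of the 19 distal ends were lower. That is 76.3% of the ends against all 19 interiors, while the differences ranged from -3.46 to 1.71 over the ends and from -1.68 to -1.10 over the interiors. With at least 50 MspI tags a site, limma called only 2 of the 57, both proximal ends. With at least 10 MspI tags, the 1 end called higher was the proximal end of chromosome 14, the end with the fewest usable sites. It had 34.4 ± 0.972 with lingonberries and 32.7 ± 1.06 with HFD (SD, n = 4, limma adjusted p = 0.00152). The distal end of chromosome 18 had the largest difference among all 57, at 20.7 ± 0.541 and 24.2 ± 1.30 (limma adjusted p = 1.94e-10). The smallest among the ends were the proximal end of chromosome 19 (-0.106) and the distal end of chromosome 15 (-0.233), which had the highest m-scores of their sets. As limma gave all 57 the same SE, 0.479, these adjusted p-values rest on a spread pooled over chromosomes.

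Set against the matched interior, 0 of the 38 ends passed in limma (0% called), with 6 at an unadjusted p under 0.05 and a lowest adjusted p of 0.0989. Among proximal ends the matched diet difference was lowest on chromosomes 3 (-0.684), 9 (-0.647) and 4 (-0.560) and highest on chromosomes 14 (2.34), 19 (0.360) and 16 (0.289). Among distal ends it was lowest on chromosomes 18 (-1.51), 3 (-1.29) and 13 (-0.910) and highest on chromosomes 15 (0.555), 7 (0.311) and 4 (0.153). The distal end of chromosome 15 thus lay 11.7 ± 0.214 above its interior with lingonberries and 11.2 ± 0.197 with HFD (SD, n = 4), without overlap but short of the threshold (limma adjusted p = 0.217).

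At the scale of 1 Mb bins with at least 50 sites, limma called 57.1% of 2539 bins lower with lingonberries and 0% higher. The bins come from the same samples, so their calls are not independent of each other. Of the bins with at least 50% of their sites in an end set, 28 of 54 proximal and 26 of 43 distal ones were called. Such bins can also hold interior sites. The 3 with the smallest adjusted p were all distal. On chromosome 3 the bin from 158000001 to 159000000 had 21.3 ± 1.31 with lingonberries and 25.7 ± 1.34 with HFD (SD, n = 4, limma adjusted p = 6.9e-05). On chromosome 14 the bin from 124000001 had 22.8 ± 1.23 and 26.6 ± 1.70, and on chromosome 18 the bin from 89000001 had 24.2 ± 0.324 and 27.5 ± 1.25. The smallest adjusted p among end bins higher with lingonberries was 0.846, on chromosome 4 from 155000001, at a difference of 0.110. Next were chromosome 15 from 102000001 (0.071) and chromosome 19 from 4000001 (0.043). With each sample's mean for the same number of neighbours subtracted, 0 of 2539 bins passed in limma, with 203 at an unadjusted p under 0.05, 3 of them proximal and 4 distal. The median adjusted difference was 0.030 over proximal and -0.164 over distal bins.

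Clusters of at least 5 sites were found in both states at the ends. The 504 proximal clusters were at 75 or above in 28.2% and below 25 in 19.2% of cases, the 474 distal ones in 21.3% and 19.2%, and the interior ones in 23.8% and 23.0%. The proximal clusters with most sites were 63 sites on chromosome 12 from 5061882, 59 of them in the array (mean 1.31), 35 sites at 3806063 to 3808804 on chromosome 12 that include the Dnmt3a promoter (75.01), and 32 sites at 4395919 to 4398537 on chromosome 19 (75.5). The largest distal clusters were 47 sites on chromosome 4 from 154008758 with the promoters of Prdm16os and 5930403L14Rik (72.4), 32 sites on chromosome 12 from 120085289 with the promoter of Sp8, a transcription factor of limb development (74.7), and 28 sites on chromosome 11 from 120048521 (73.7).

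The most methylated clusters were nearly without HpaII tags. A proximal cluster of 10 sites on chromosome 17 from 5241036 drew no HpaII tag in any of the 8 samples, which allows up to 3, against 173 MspI tags. Of its sites 90% had shared tags, so its level cannot be tied to this place alone. On chromosome 6, 11 sites from 4705339 averaged 0.981, and on chromosome 12, 18 sites from 5057486, in the array, averaged 0.104. Shared tags occurred at 27.3% and 44.4% of these sites. At distal ends the lowest were 6 sites each on chromosome 4 from 155550331 (0.844) and 155545673 (0.940) and on chromosome 5 from 150923131 (1.33).

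Of the clusters, 331 of 504 proximal and 311 of 474 distal ones had a higher mean with lingonberries (65.7% and 65.6%), as did 65.9% of interior clusters. limma called 0 of 21020 over the genome (0% called), with 1728 at an unadjusted p under 0.05, 48 of them proximal and 34 distal. The smallest p at the proximal ends belonged to 25 sites on chromosome 19 from 5559934, with 77.0 ± 1.99 with lingonberries and 70.1 ± 2.54 with HFD (SD, n = 4, limma adjusted p = 0.602). It was followed by 5 sites on chromosome 1 from 5906217 (48.7 ± 4.48 and 32.2 ± 7.72) and 10 sites on chromosome 7 from 4452678, with the promoter of Ppp1r12c, a regulatory subunit of myosin phosphatase (74.8 ± 2.16 and 69.1 ± 1.56). At the distal ends it belonged to 8 sites on chromosome 4 from 154938121, with 72.7 ± 3.96 and 62.2 ± 2.99. Next were 7 sites on chromosome 12 from 120093024 (71.2 ± 1.42 and 64.3 ± 0.426) and 5 on chromosome 11 from 120502417, the only one of these 6 that was lower with lingonberries (21.6 ± 4.28 and 32.9 ± 4.20).

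Placed promoters at the ends had high m-scores, more of them above 75 at the proximal than at the distal ends. Placing needed at least 3 CCGG, met by 6783 autosomal promoters, out of 32851 RefSeq promoters in all. This favours CpG-dense promoters, so the high level holds for those placed and not for promoters in general. Of 135 placed proximal promoters, 87 were at 75 or above, 47 between 25 and 75, and only Emid1 below 25. Of 123 distal ones, 54 were at 75 or above, 69 between 25 and 75, and none below 25. Over 5074 interior promoters 56.6% were at 75 or above and 0.867% below 25. The lowest distal promoters were Csf2ra, a cytokine receptor subunit on chromosome 19 (42.5), Tbcd, a tubulin folding cofactor on chromosome 11 (45.4), and Zfp385a (47.4), and the highest was Ntsr1, a neurotensin receptor on chromosome 2 (87.3). The median difference was 2.43 at proximal, 1.68 at distal and 2.09 at interior promoters, higher with lingonberries. In limma 0 of 5332 promoters passed (0% called), with 417 at an unadjusted p under 0.05, 13 of them proximal and 6 distal.

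Of the 1310003 single sites, limma called 0.00947% lower and 0.00397% higher with lingonberries, and 5 of the calls lay in the ends. On chromosome 3, position 3986579 had 0 in all 4 lingonberry samples and 71.9, 73.7, 76.1 and 70.5 in the HFD samples, from 4 HpaII tags in all over 2.00 MspI tags. On chromosome 19, position 5747558 had 80.0, 70.3, 81.0 and 84.0 with lingonberries and 0 in all HFD samples, from 13 HpaII tags over 3.00 MspI tags. The calls at 5101925 on chromosome 11, 95126599 on chromosome 17 and 4531559 on chromosome 4 rested on 4 tags each, all in HFD samples, with HFD means of 3.84, 8.57 and 16.4. In all 5, each group at 0 had a spread of 0. With a minimum of 10 MspI tags 3 were called in the ends, and with at least 1 HpaII tag over the samples 0 were.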

How the data were processed

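DNA of 8 mouse liver samples (4 per diet) was profiled by HELP-tagging. Per the file headers, each deposited file gives an m-score, a score from 0 to 100, and conf, treated as a signal. From the values, the m-score is the angle and conf the length of a vector of HpaII and MspI tags. A single MspI reference (29676315 tags) underlies all files, brought to the HpaII total of each. Build mm9 and CASAVA are named per the submitters' processing notes, with no version. For the aligner and filters, the sources used here give nothing. HpaII tags per sample ranged from 5877080 to 16076961, with no molecular identifiers named in the labels, so statements on depth cover counting error only. No counts were tested. The labels do not tie the samples to separate animals, so p-values reflect only how far these samples spread, which may be technical.

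Sites listed in all 8 files were used, with at least 10 MspI tags unless stated otherwise. The main test of single sites set no MspI minimum. Interior sites were matched per chromosome by the number of other sites within 500 bp (0 to 9 singly, 10 to 14, 15 or more). Group means were compared with exact permutation tests (70 assignments) and ends with interiors by exact sign flips (256), with Benjamini-Hochberg adjustment. Chromosomes, 1 Mb bins, clusters (gaps of at most 500 bp) and sites were tested with limma 3.58.1 in R 4.3.3, over the whole table and with a threshold of 0.05; limma and the matching were tested on simulated data. Named were the 3 extreme chromosomes, bins, clusters and called sites of each kind. Members and lists were chosen with earlier results of these data known.

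Genes, the array, the chromosome 15 block, tag-rich sites and promoters were looked at after the data were seen. The written plan named genes only from an mm9 reference, which was not used here. Instead, RefSeq promoters (GRCm38.p6) with at least 3 CCGG, 6783 on the autosomes, were placed by CCGG spacing; 6163 were placed, 216 of these were left out for order or spacing, and 5332 genes had at least 2 usable sites, 258 of them in the ends.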

Additional observations from a re-analysis of the deposited data

Results flagged for a closer look

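The diet difference at isolated sites was lower than that at clustered sites by 4.59 points at the proximal ends (-4.59, from -50.4 ± 1.26 with lingonberries and -45.8 ± 2.53 with HFD for isolated minus clustered sites; SD, n = 4, exact permutation p = 0.0286, with no overlap of the groups). At the distal ends it was -4.69 (exact permutation p = 0.0286, also with no overlap). Both were picked out because the effect of diet differed between classes of site, and both lay near the interior value of -4.76.

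In the HFD group, the distal end of chromosome 12 had a sample far from the other 3. It lay 1.72 above its matched interior, and the others lay 2.14 to 2.17 above theirs. Of 100 groups of 4 samples examined in this way, this was the only one, where chance gives about 1 in 20.

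Sites with HpaII tags in all 8 samples but no MspI tag were outside the comparisons that required MspI tags. There were 15 at the proximal and 21 at the distal ends, and 573 in the interior. The main test of single sites set no MspI minimum and so included them.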

How the results depend on the processing

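No paired analysis was possible because the sample titles give the groups no shared replicate numbers. The level of the proximal ends was 0.566 without matching and 0.0888 on the scale of log2 tags, and lost its call as the share of sites at 75 or above (-0.061); the distal level lost it without chromosome 15 (0.049). The other alternatives kept direction and call, and every chromosome left out in turn gave -1.32 to -0.676 for the proximal and 0.049 to 1.58 for the distal level. Leaving out chromosomes or the array was chosen after seeing the data. The diet difference reversed with log2 tags (0.0313 proximal, 0.0310 distal), with the share of sites at 75 or above (0.472 and 0.192) and, at distal ends, with a MspI minimum of 50 tags (0.202); it stayed short of the threshold in each. Beyond the matched interior, the proximal value reversed with that minimum (-0.150) and with ends of 9 and 4 Mb (-0.034), and the distal value with a minimum of 1 tag (0.055), no matching (0.176) and the wider ends (0.023). The gap between the ends reversed with a minimum of 50 tags (-0.058), no matching (-0.037) and the wider ends (-0.057), and passed with chromosomes weighted equally (0.381). The cause of these changes was not tested.

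Of the calls in the ends, chromosomes by diet fell from 30 to 2 with a MspI minimum of 50 tags, and 1 Mb bins from 54 to 23 with a minimum of 1. Beyond the matched interior, calls rose from 0 to 1 with a minimum of 1. Calls on single sites, 5 in the ends, fell to 3 with a MspI minimum of 10 and to 0 with at least 1 HpaII tag. With each sample left out in turn, there were 26 to 33 calls of chromosome ends by diet, 0 to 2 beyond the matched interior, 32 to 53 of bins, 6 to 22 of single sites and 0 of clusters and of density-adjusted bins. Calls of single sites exceeded 1.5 times 5 without any sample but lingonberry replicate 4. Calls beyond the matched interior were 2 without HFD replicate 2, and 1 each without lingonberry replicates 2 and 4. Calls of bins fell most without HFD replicate 3 (32) and were 35 without lingonberry replicate 2. The median site had 16.3 MspI tags at proximal and 19 at distal ends, so scores of single sites move in coarse steps.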
